A study of Homo sapiens with 28 samples.

Results

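The genes described here are 31 genes of cholesterol synthesis, sterol sensing, uptake, efflux and the closely tied fatty acid enzymes, taken by name from the 26346 gene symbols counted in every library. The list names genes and uses no measured value, but it was drawn up with earlier results of these data known. The choice of control by strand profile did rest on measured values, because the empty vector pairs were already known to differ in these genes. Of the 31 genes, 30 had enough reads to be tested, among 14220 genes tested in all. The 31st, ABCA1, was counted at 0 to 5 reads in each library. The cells were AN3CA, a human endometrial carcinoma line, given an empty vector or 1 of 12 constructs of ARID1A or ARID1B, the large subunits that define the canonical BAF chromatin remodelling complex. For ARID1A there were 7 constructs, namely wild-type (WT), the CBR truncation, the delIDR1 truncation, the ARID domain mutant DBDmut, a hybrid carrying the DDX4 disordered region, the AQG scramble (AQGscram) and the 42YS mutant. The 42YS libraries are titled Y42S, and the labels do not make the direction or extent of that change clear. The 5 ARID1B constructs were wild-type, M2 (the deletion S320_G327del), A457_G461del and the Block13 and Block9 deletions (Block13del, Block9del). Each construct had 2 libraries of polyadenylated RNA and the empty vector had 4, which gave 28 libraries in 13 groups. No drug treatment or time point distinguished the groups, and all cells were grown in serum-containing medium. The promoter that drives the constructs, the number of clones and whether replicate libraries came from separate cultures are not given in the sources used here. In such bulk RNA, a change in the share of cells and a change in RNA per cell cannot be told apart. The p-values measure the spread between libraries, which may be technical.

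Cholesterol is built from acetyl-CoA through mevalonate, the isoprenoid diphosphates, squalene and a series of sterol intermediates, mostly in the endoplasmic reticulum. When membrane sterol is low, SCAP escorts the transcription factor SREBP-2 (gene SREBF2) to the Golgi for cleavage, and the released factor activates the synthesis genes. When sterol is high, the INSIG proteins retain SCAP. Oxysterols activate the liver X receptors, which induce the efflux pumps ABCA1 and ABCG1 and the ubiquitin ligase MYLIP, which lowers lipoprotein receptors at the cell surface. NPC1 and NPC2 move lipoprotein cholesterol out of lysosomes.

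Promoter sequences are shown because SREBP works at the promoters of such genes beside the CCAAT-binding factor NF-Y, and with several constructs most synthesis enzymes were called in the same direction. The RefSeq promoter table of build GRCh38.p14 held 26 of the 31 genes. The reads were aligned to hg19, so the coordinates belong to the sequence table and not to the count files. The 6 genes with the largest median size of change, whatever its sign, across the 7 comparisons with an own empty vector pair, among those with a promoter in the table, are printed. SREBF2 was added after its promoter had been searched, because it held the sterol regulatory element. Each line gives the 250 bases before the annotated start, 5′ to 3′ on the gene's strand, with every CCAAT box on either strand (CCAAT or ATTGG) and every sterol regulatory element in capitals.
NPC2 (chr14:74493513-74493762, minus strand): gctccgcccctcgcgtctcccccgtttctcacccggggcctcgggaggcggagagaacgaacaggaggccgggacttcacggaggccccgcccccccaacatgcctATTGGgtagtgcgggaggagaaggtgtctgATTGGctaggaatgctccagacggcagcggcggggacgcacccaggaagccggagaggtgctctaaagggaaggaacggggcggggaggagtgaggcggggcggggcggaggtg
TM7SF2 (chr11:65111622-65111871, plus strand): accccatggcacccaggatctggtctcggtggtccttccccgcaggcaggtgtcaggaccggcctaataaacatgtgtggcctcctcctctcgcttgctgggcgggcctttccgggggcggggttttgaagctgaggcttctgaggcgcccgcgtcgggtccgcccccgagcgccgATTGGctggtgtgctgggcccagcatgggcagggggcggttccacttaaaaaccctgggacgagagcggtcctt
MVK (chr12:109573544-109573793, plus strand): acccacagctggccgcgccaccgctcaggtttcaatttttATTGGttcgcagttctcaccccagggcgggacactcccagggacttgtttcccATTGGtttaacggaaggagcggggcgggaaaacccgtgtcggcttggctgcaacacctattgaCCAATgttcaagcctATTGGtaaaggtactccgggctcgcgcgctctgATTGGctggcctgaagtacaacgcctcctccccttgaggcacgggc
LSS (chr21:46228775-46229024, minus strand): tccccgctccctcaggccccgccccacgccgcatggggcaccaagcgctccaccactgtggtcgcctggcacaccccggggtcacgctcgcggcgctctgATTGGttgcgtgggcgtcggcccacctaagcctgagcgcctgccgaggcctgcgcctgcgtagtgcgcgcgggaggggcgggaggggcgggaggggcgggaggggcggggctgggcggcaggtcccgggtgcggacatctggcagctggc
MVD (chr16:88663092-88663341, minus strand): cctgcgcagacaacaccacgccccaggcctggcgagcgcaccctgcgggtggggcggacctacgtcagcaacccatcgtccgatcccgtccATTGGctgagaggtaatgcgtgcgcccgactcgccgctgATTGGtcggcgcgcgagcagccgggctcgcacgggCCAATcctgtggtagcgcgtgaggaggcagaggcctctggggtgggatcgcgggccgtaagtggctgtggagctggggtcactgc
EBP (chrX:48521558-48521807, plus strand): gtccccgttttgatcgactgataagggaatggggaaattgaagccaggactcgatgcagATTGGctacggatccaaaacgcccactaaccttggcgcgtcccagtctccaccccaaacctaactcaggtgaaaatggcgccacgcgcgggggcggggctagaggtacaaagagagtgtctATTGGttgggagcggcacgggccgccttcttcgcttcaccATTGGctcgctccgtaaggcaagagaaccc
SREBF2 (chr22:41832855-41833104, plus strand): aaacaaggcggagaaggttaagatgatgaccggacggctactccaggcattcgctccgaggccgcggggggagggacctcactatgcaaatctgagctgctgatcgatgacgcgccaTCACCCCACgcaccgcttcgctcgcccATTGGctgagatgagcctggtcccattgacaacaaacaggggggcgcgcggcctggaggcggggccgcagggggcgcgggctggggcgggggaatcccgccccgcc

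A CCAAT box on either strand lay in the 250-base window of 19 of the 26 genes (73.1%), against 37% of the 27305 genes in the table. MVK held 5 of them, and MVD and EBP held 3 each. The sterol regulatory element, searched as TCACNCCAC on both strands, lay in the window of SREBF2 alone (3.85%), against 1.09% of all genes. The E-box CACGTG lay in 4 windows (15.4%), those of SC5D, SCAP, INSIG1 and ABCA1, against 7.73% of all genes. No window held the direct repeat bound by liver X receptors, which was found in 0.0183% of all genes. These matches describe letters in a window, and no binding was measured in these libraries.

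The libraries held 16.6 M to 27.9 M gene reads (median 22.0 M) on the strand opposite to the gene, the strand counted here. The share of stranded gene reads on that strand sorted the libraries into 3 profiles that the labels do not name. Profile 1 (84.5 to 87.8%) held empty vector libraries 1 and 2 with ARID1A WT, CBR, delIDR1 and DBDmut. Profile 2 (98.1 to 98.6%) held empty vector libraries 3 and 4 with the ARID1A DDX4 hybrid, ARID1B WT and M2. Profile 3 (96.7 to 97.9%) held the other 5 constructs and no empty vector. With each construct that had an empty vector pair of its own profile, the targeted gene was above that pair. ARID1A was at 284 ± 17.1 CPM (reads scaled to library size, SD, n = 2) in empty vector 1 and 2 and at 733 ± 43.8 with ARID1A WT. In the libraries labelled AQGscram, which had no such pair, it was at 247 ± 52.6 and so not above empty vector 1 and 2. Endogenous and construct transcripts are counted together. The AQGscram pair also stood apart in its replicate noise, with a chi-square per gene of 34.6 between its 2 libraries against 1.19 to 5.51 in every other pair. The genes called in it are therefore given with and without each of its libraries. Of 8 epithelial and endometrial markers, PAX8 (0 to 0.234 CPM), EPCAM (0.124 to 0.809 CPM) and CDH1 (0 to 1.63 CPM) were at or near 0. KRT18 was at 9.89 to 83.2 CPM, HOXA10 at 5.83 to 22.7 CPM and HOXA11 at 4.44 to 16.2 CPM. Only these last 3 were over 1 CPM in every library, and sums over this list rest mostly on them. Of 8 markers of leukocytes, endothelium and red cells, 7 stayed under 1 CPM in every library, and CD68 reached 16.5 CPM.

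The empty vector libraries themselves fell into 2 levels of sterol gene expression, a difference already known when the controls were chosen. HMGCS1, the synthase that condenses acetyl units before mevalonate, was at 252 and 244 CPM in empty vector libraries 1 and 2, and at 671 and 663 CPM in libraries 3 and 4. SQLE, the squalene epoxidase, was at 233 and 224 CPM in the first pair and at 564 and 564 CPM in the second. HSD17B7, a sterol ketoreductase with a near-identical pseudogene copy that makes its count uncertain, was at 10.1 and 9.04 CPM against 39.6 and 38.3 CPM. The pairs did not overlap for any of these genes. By the edgeR quasi-likelihood test with Benjamini-Hochberg adjustment over all genes, with a call at an adjusted p under 0.05, 25 of 30 tested sterol genes were higher in empty vector 3 and 4 (28.8% of all genes tested were) and 2 were lower (29.7%). The HMGCS1 log2 difference was 1.43 ± 0.051 (SE, adjusted p 8.73e-18) and that of SQLE was 1.30 ± 0.039 (adjusted p 2.59e-19). Of 18 synthesis enzymes, 17 were higher, with a median log2 difference of 1.13 against -0.02 over all genes tested, and PMVK, the phosphomevalonate kinase, did not pass (0.22 ± 0.105, adjusted p 0.0776). The 2 genes that were lower were SCAP (-0.17 ± 0.051, adjusted p 0.00647) and NPC1 (-0.17 ± 0.053, adjusted p 0.00765). The summed level of 12 replication and mitosis genes was 1701 to 1755 CPM in the first pair and 2759 to 2818 CPM in the second, and that of 10 p53 targets was 857.6 to 866.4 CPM against 334.3 to 336.5 CPM. Their part in the sterol gene difference was not tested. The empty vector pair and the strand profile cannot be told apart, so constructs of profiles 1 and 2 were each set against the empty vector libraries with the same profile.

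**Figure D1:**
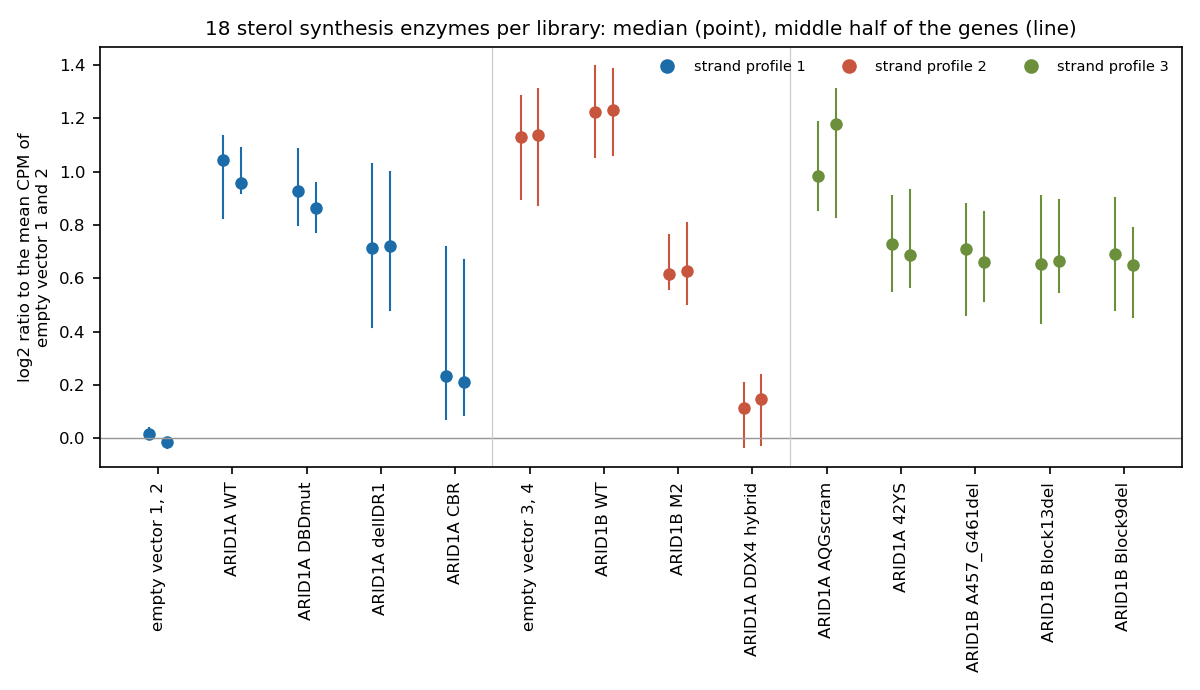
Median log2 ratio of 18 sterol synthesis enzymes to their mean CPM in empty vector 1 and 2 (y axis), with 1 point per library and a vertical line over the interquartile range of the genes, for 13 groups with the empty vector split into its 2 pairs (x axis, coloured by strand profile). Empty vector 3 and 4 sit at 1.13 and 1.14, ARID1B WT at 1.23 in both libraries, and the ARID1A DDX4 hybrid at 0.11 and 0.15, near empty vector 1 and 2.

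ARID1A WT was accompanied by higher levels of nearly the whole synthesis route in profile 1. Against empty vector 1 and 2, 24 of 30 sterol genes were higher (29.9% of all genes tested were) and 2 were lower (30.8%). At 1.5-fold or more, 22 were higher (15.6% of all genes tested) and 1 was lower (10.7%). Among 18 synthesis enzymes, 17 were higher and PMVK did not pass (-0.08 ± 0.106, adjusted p 0.552 by edgeR), with a median log2 fold change of 0.99 against -0.03 over all genes. HMGCS1 was at 591 and 569 CPM with ARID1A WT against 252 and 244 CPM, a log2 fold change of 1.23 ± 0.051 (SE, n = 2 libraries per group, adjusted p 4.68e-17). MSMO1, the sterol C4-methyl oxidase, was at 138 and 129 CPM against 45.5 and 45.3 CPM, a 2.94-fold difference and the largest among the enzymes (1.55 ± 0.058). TM7SF2, a sterol reductase, was at 151 and 153 CPM against 51.3 and 54.3 CPM, 2.88-fold higher. HSD17B7 was at 24.2 CPM in both libraries against 10.1 and 9.04 CPM, 2.53-fold higher. In each of these genes both ARID1A WT libraries were above both empty vector libraries. The direction rests on the control pair: against empty vector 3 and 4, 7 sterol genes were higher (29.4% of all genes tested) and 14 lower (31.9%) with ARID1A WT. The 8 markers of other cell types summed to 15.05 to 16.78 CPM with ARID1A WT and to 1.813 to 2.472 CPM in empty vector 1 and 2, mostly CD68. The epithelial markers summed to 73.33 to 73.71 CPM against 29.8 to 31.01 CPM, the replication genes to 1978 to 1989 CPM against 1701 to 1755 CPM, and the p53 targets to 651.8 to 655.2 CPM against 857.6 to 866.4 CPM. Their part in the sterol gene changes was not tested.

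The rest of the route moved by smaller steps with ARID1A WT. ACAT2, which joins the first acetyl units, was at 204 and 194 CPM against 97.6 and 92.4 CPM (log2 fold change 1.07 ± 0.049). In the mevalonate arm the kinase MVK, the decarboxylase MVD, the isomerase IDI1 and the farnesyl diphosphate synthase FDPS rose by 1.01, 1.06, 0.97 and 0.88 on the log2 scale. In the squalene and sterol ring arm the rises were 0.70 for the squalene synthase FDFT1, 0.94 for SQLE, 1.12 for the lanosterol synthase LSS and 1.07 for the lanosterol demethylase CYP51A1. Further down they were 0.88 for the dehydrogenase NSDHL, 0.96 for the isomerase EBP, 0.60 for the desaturase SC5D and 0.87 for DHCR7, the last reductase on one branch. SC5D was thus the smallest called rise among the enzymes.

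Sensing, transport and efflux genes were more mixed with ARID1A WT. INSIG1, itself a known target of SREBP, was at 164 and 168 CPM against 86.3 and 83.1 CPM, a log2 fold change of 0.97 ± 0.045. INSIG2 was at 29.1 and 24.8 CPM against 10.97 and 11.4 CPM, 2.4-fold higher (1.26 ± 0.098, adjusted p 2.04e-11 by edgeR). SREBF2 rose by 0.49 and SCAP fell by 0.17, while SREBF1 did not pass (0.08 ± 0.051, adjusted p 0.191). STARD4, a soluble sterol carrier, rose by 0.54, MYLIP by 1.11 and NPC2 by 1.43 on the log2 scale, and NPC1 was at 0.02 ± 0.052 (adjusted p 0.75). ABCG1 was counted at 0.351 and 0.562 CPM against 0.907 and 0.899 CPM, a fold change of 0.521 (log2 -0.94 ± 0.361, adjusted p 0.0293). It was called in 1 of 4 fits that each left out a library, with values between -1.35 and -0.68. FASN, the fatty acid synthase, was 1.85-fold higher, and the desaturase SCD did not pass (0.08 ± 0.043, adjusted p 0.122).

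**Figure D2:**
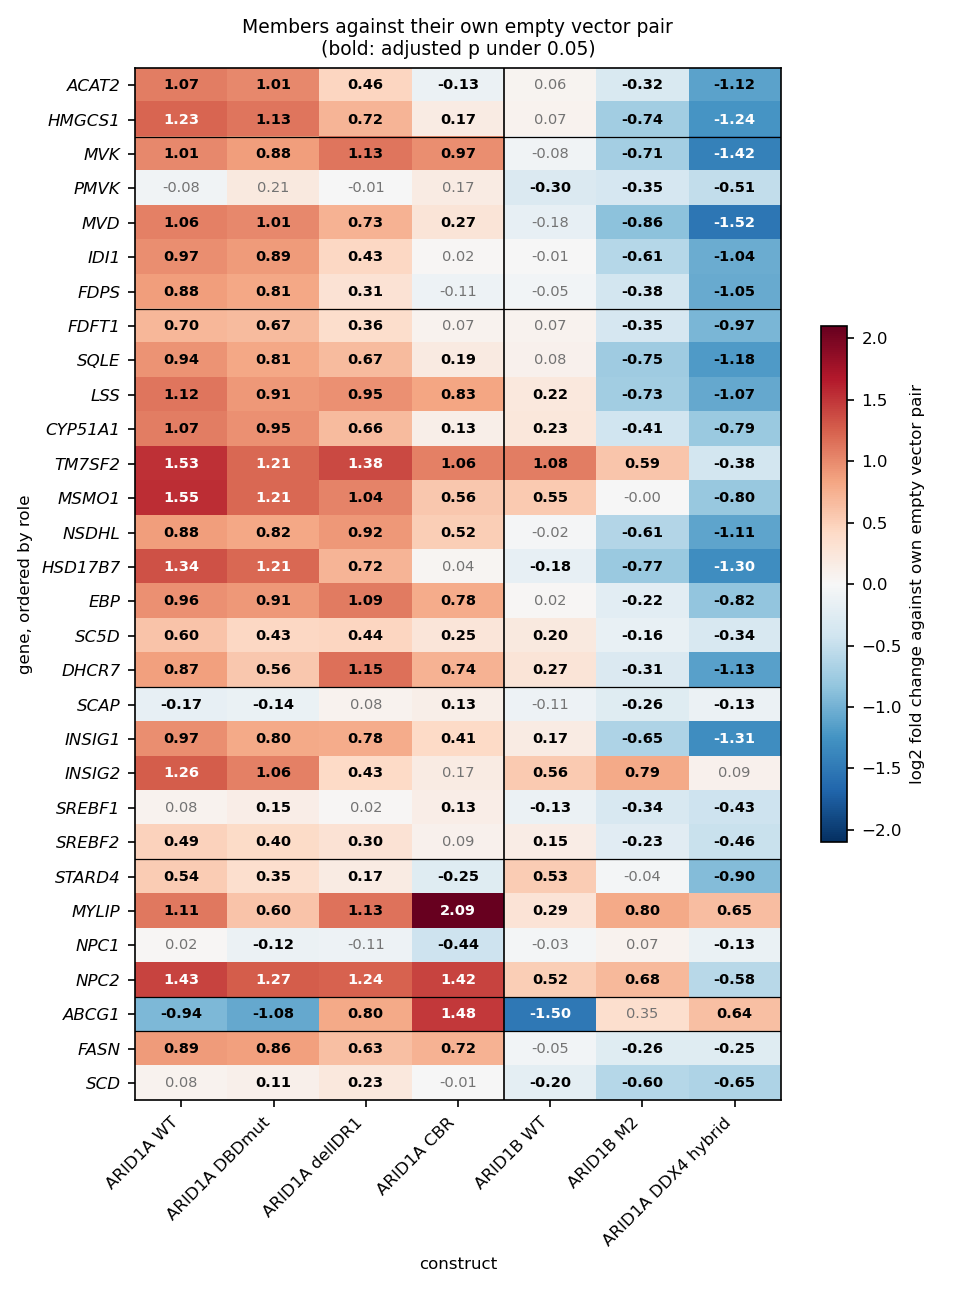
Log2 fold change of each tested sterol gene (rows, ordered by role) with each of 7 constructs against the empty vector libraries of the same strand profile (columns, profile 1 left of the line), with bold figures where the adjusted p was under 0.05. The enzymes run from 0.60 to 1.55 with ARID1A WT, apart from PMVK at -0.08, and from -1.52 to -0.34 with the ARID1A DDX4 hybrid, whose column shares no control with that of ARID1A WT.

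Most sterol genes were also higher with ARID1A DBDmut. Against the same empty vector pair, 26 of 30 genes were higher (30% of all genes tested) and 3 were lower (29.1%), and 17 of 18 enzymes were higher, with a median log2 fold change of 0.90. The 1.5-fold rule left 20 higher (13.7%) and 1 lower (9.56%). The other empty vector pair as control gave 4 higher (25%) and 17 lower (27.1%). HMGCS1 was at 536 and 551 CPM, MSMO1 at 98.1 and 112 CPM, and INSIG2 at 21.2 and 25.2 CPM. The lower genes were SCAP (-0.14 ± 0.051), NPC1 (-0.12 ± 0.052) and ABCG1 (-1.08 ± 0.360), each called at the edge of the threshold (adjusted p 0.0181, 0.0476 and 0.0119 by edgeR). SCAP and NPC1 were called in 0 of 4 fits that left out a library, and ABCG1 in 3 of 4. Tested directly against ARID1A WT, 9 genes were lower (10.7% of all genes tested) and 0 were higher (8.33%), with 1 higher and 14 lower at an unadjusted p under 0.05 and 0 higher and 12 lower by DESeq2. None changed by 1.5-fold (0.471% of all genes tested were higher and 4.43% lower by that rule). The called genes included MSMO1 (-0.34 ± 0.055, adjusted p 3.78e-05), TM7SF2 (-0.32 ± 0.073), DHCR7 (-0.30 ± 0.056), LSS (-0.22 ± 0.049) and MYLIP (-0.51 ± 0.107). Among the enzymes the difference was under 0.35 on the log2 scale in size, and 5 genes were called without DBDmut replicate 1. The summed replication genes were at 2514 to 2526 CPM with DBDmut, at 1978 to 1989 CPM with ARID1A WT and at 1701 to 1755 CPM in empty vector 1 and 2. The markers of other cell types summed to 7.565 to 7.922 CPM with DBDmut against 1.813 to 2.472 CPM in the empty vector, and the p53 targets to 560.9 to 578 CPM against 857.6 to 866.4 CPM. Their part was not tested.

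With ARID1A delIDR1 the sterol genes were higher than in the empty vector, and most were lower than with ARID1A WT. Against empty vector 1 and 2, 26 of 30 genes were higher (25.2% of all genes tested) and 0 were lower (31.1%) by edgeR, with 1 lower at an unadjusted p under 0.05 and 0 by DESeq2. By the 1.5-fold rule 17 were higher (12.1%) and 0 lower (7.25%). Set against the other pair, 5 were higher (33.9%) and 16 lower (33.7%). The 18 enzymes had a median log2 fold change of 0.72, and 17 were called higher. Against ARID1A WT itself, 19 sterol genes were lower (32.2%) and 4 were higher (25.5%). By 1.5-fold or more, 3 were lower (12%) and ABCG1 was higher (8.79%). The largest shortfalls among the enzymes were in HSD17B7 (-0.62 ± 0.079), ACAT2 (-0.61 ± 0.048), FDPS (-0.58 ± 0.053), IDI1 (-0.54 ± 0.051), HMGCS1 (-0.51 ± 0.050) and MSMO1 (-0.51 ± 0.055). HMGCS1 was at 409 and 407 CPM with delIDR1 against 591 and 569 CPM with ARID1A WT. DHCR7 differed in the other direction. It was at 456 and 452 CPM with delIDR1 against 358 and 385 CPM, a log2 difference of 0.29 ± 0.056 (adjusted p 8.99e-05 by edgeR). MVK, NSDHL, EBP and TM7SF2 did not pass against ARID1A WT (0.12 ± 0.079, 0.04 ± 0.071, 0.13 ± 0.075 and -0.15 ± 0.072). INSIG2 was at 15.8 and 14.2 CPM with delIDR1, below both ARID1A WT libraries (-0.84 ± 0.093). ABCG1 was at 1.79 and 1.35 CPM, above both ARID1A WT libraries (1.74 ± 0.318). The summed replication genes were at 1337 to 1356 CPM with delIDR1, below both groups. The markers of other cell types were at 4.672 to 5.325 CPM and the p53 targets at 623.7 to 641.2 CPM, and the part of these lists was not tested.

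The sterol genes differed widely from one another with ARID1A CBR. ARID1A transcript was highest with this truncation (1017 ± 26.1 CPM), and 19 of 30 sterol genes were higher than in empty vector 1 and 2 (28.7% of all genes tested) and 3 were lower (30.8%). Of these, 9 were higher by 1.5-fold or more (12.8%) and 0 lower (10%). The other pair as control gave 5 higher (35.3%) and 21 lower (34%). The median over the enzymes was 0.22, with 12 of 18 higher and 1 lower, but the values ran from -0.13 to 1.06. Several genes were within 1.5-fold of the empty vector. HMGCS1 was at 272 and 287 CPM against 252 and 244 CPM (0.17 ± 0.051), IDI1 at 84.7 and 81.6 CPM against 82.0 and 81.7 CPM, and HSD17B7 at 9.94 and 9.79 CPM against 10.1 and 9.04 CPM. ACAT2 was lower, at 89.5 and 84.1 CPM against 97.6 and 92.4 CPM (-0.13 ± 0.050, adjusted p 0.0279 by edgeR), a call kept in 2 of 4 fits that left out a library. IDI1, FDPS, FDFT1, PMVK and HSD17B7 did not pass. Others were further above it. MVK was at 30.9 and 29.9 CPM with CBR and at 32.8 and 29.9 CPM with ARID1A WT, and it was 1.96-fold above the empty vector. TM7SF2 rose by 1.06, LSS by 0.83, EBP by 0.78 and DHCR7 by 0.74 on the log2 scale. MSMO1 rose by 0.56 and NSDHL by 0.52, both still within 1.5-fold. NPC2 was at 106 and 109 CPM with CBR and at 109 and 107 CPM with ARID1A WT, against 39.6 and 40.6 CPM in the empty vector. The markers of other cell types summed to 3.73 to 3.784 CPM with CBR, the p53 targets to 483.7 to 495.1 CPM and the replication genes to 1566 to 1573 CPM, against 1.813 to 2.472, 857.6 to 866.4 and 1701 to 1755 CPM in empty vector 1 and 2, and their part was not tested.

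CBR was also compared directly with ARID1A WT. Of 30 sterol genes, 22 were lower with CBR (33.1% of all genes tested) and 4 were higher (29.4%), and 16 of 18 enzymes were lower, with a median log2 difference of -0.69. By 1.5-fold or more, 12 were lower (15%) and 2 higher (11.5%). The differences were -1.30 ± 0.085 for HSD17B7, -1.20 ± 0.049 for ACAT2, -1.05 ± 0.051 for HMGCS1 and -0.99 ± 0.056 for MSMO1. They were -0.13 ± 0.056 for DHCR7 and -0.18 ± 0.077 for EBP, each close to the threshold (adjusted p 0.0492 and 0.0427 by edgeR), and DHCR7 was called in 2 and EBP in 1 of 4 fits that left out a library. MVK did not pass (-0.04 ± 0.080, adjusted p 0.685), nor did NPC2 (0.998-fold, adjusted p 0.972). MYLIP was at 18.04 and 17.9 CPM with CBR, at 8.84 and 9.32 CPM with ARID1A WT and at 4.03 and 4.41 CPM in empty vector 1 and 2. These were the highest MYLIP levels in the series, 4.25-fold above the empty vector (2.09 ± 0.101, adjusted p 2.65e-15). ABCG1 was at 2.46 and 2.61 CPM with CBR, 2.8-fold above the empty vector and 5.36-fold above ARID1A WT. INSIG2 was at 13.1 and 11.98 CPM with CBR, below the ARID1A WT libraries by 1.10 on the log2 scale. STARD4 (-0.25 ± 0.063) and NPC1 (-0.44 ± 0.053) fell against the empty vector with CBR, and FASN was 1.65-fold higher.

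**Figure D3:**
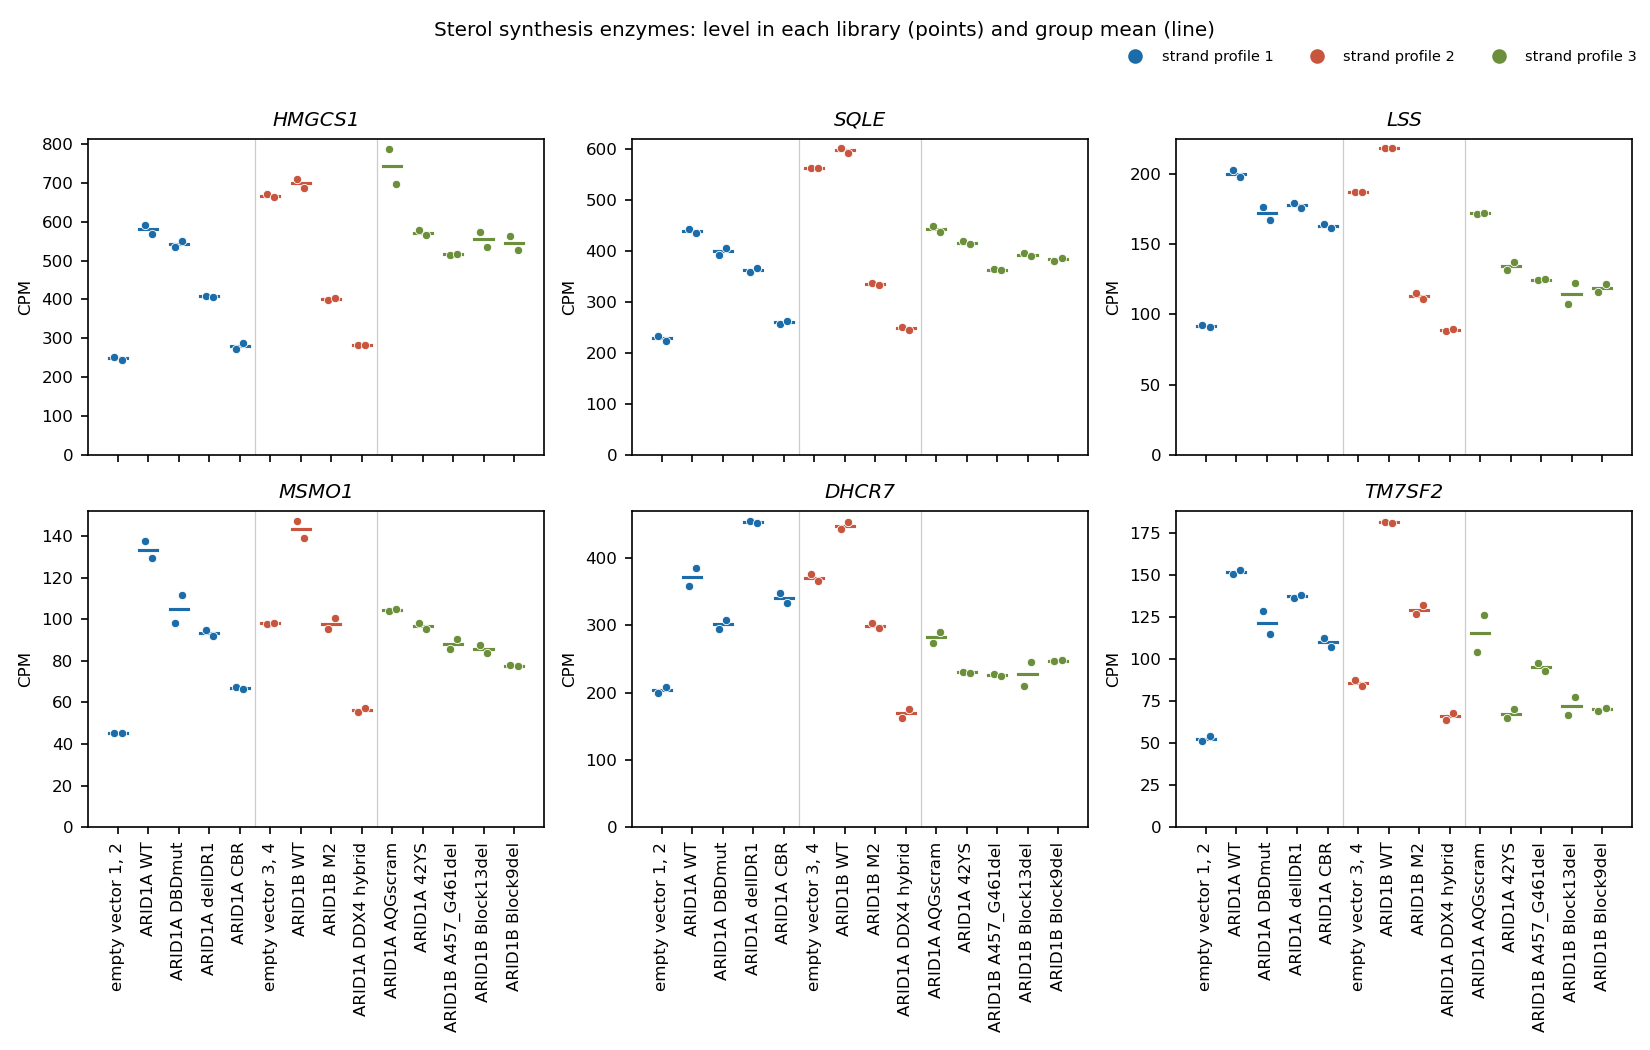
Level of 6 synthesis enzymes in CPM (y axes, from 0) in each library (points) with the group mean (line), by group (x axis) and strand profile (colour). With ARID1A CBR, HMGCS1 and SQLE lie near empty vector 1 and 2, at 272 and 287 CPM and at 257 and 263 CPM, while DHCR7 and LSS lie near ARID1A WT, at 348 and 333 CPM and at 165 and 161 CPM.

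With the ARID1A DDX4 hybrid the synthesis genes were lower than in its own control. Against empty vector 3 and 4, 27 of 30 sterol genes were lower (24.4% of all genes tested) and 2 were higher (26.1%). By 1.5-fold or more, 18 were lower (6.35%) and 2 higher (8.69%). All 18 enzymes were lower, with a median log2 fold change of -1.06 against 0.03 over all genes. HMGCS1 was at 283 and 282 CPM with the hybrid against 671 and 663 CPM in the empty vector (-1.24 ± 0.051, adjusted p 1.13e-16 by edgeR). SQLE was at 252 and 245 CPM against 564 and 564 CPM (-1.18 ± 0.039). MVD was at 39.8 and 42.3 CPM against 117 and 119 CPM, a fold change of 0.348 and the largest fall. MVK (0.374-fold), HSD17B7 (0.406-fold) and HMGCS1 (0.423-fold) followed, and the smallest falls were in SC5D (0.788-fold), TM7SF2 (0.769-fold) and PMVK (0.702-fold). In each of these enzymes both hybrid libraries were below both empty vector libraries.

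Upstream and fatty acid genes were lower with the hybrid too. INSIG1 was at 72.9 and 67.8 CPM against 174 and 174 CPM, a fold change of 0.404. SREBF2 fell by 0.46, SREBF1 by 0.43 and STARD4 by 0.90 on the log2 scale, and SCD by 0.65 and FASN by 0.25. SCAP and NPC1 fell by 0.13 each, and these calls were lost in 4 and 3 of 4 fits that left out a library. NPC2 was at 69.7 and 66.1 CPM against 106 and 96.7 CPM (-0.58 ± 0.071). INSIG2 did not pass (0.09 ± 0.117, adjusted p 0.556 by edgeR). The higher genes were MYLIP, at 11.4 CPM in both libraries against 7.59 and 6.97 CPM (0.65 ± 0.101), and ABCG1, at 2.44 and 3.17 CPM against 1.63 and 1.95 CPM (0.64 ± 0.206, adjusted p 0.0118), which was called in 2 of 4 fits that left out a library. The summed replication genes were at 3015 to 3045 CPM with the hybrid and at 2759 to 2818 CPM in its control. The 10 p53 targets summed to 423.7 to 433.6 CPM with the hybrid against 334.3 to 336.5 CPM, and the markers of other cell types to 3.658 to 4.151 CPM against 1.617 to 2.812 CPM. Their part was not tested.

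Set beside the other empty vector pair, the hybrid's levels differed from gene to gene. HMGCS1 was at 252 and 244 CPM in empty vector 1 and 2 and DHCR7 at 199 and 209 CPM, against 283 and 282 CPM and 162 and 176 CPM with the hybrid. STARD4 was lower with the hybrid, at 86.0 and 80.1 CPM against 143 and 145 CPM. FASN was higher, at 757 and 771 CPM against 518 and 513 CPM, as were NPC2, MYLIP and ABCG1 in both libraries. Compared with empty vector 1 and 2 in place of its own pair, the hybrid had 12 sterol genes higher (31.8% of all genes tested) and 9 lower (30.4%), the latter near the share of all genes. With all 4 empty vector libraries as the control it had 2 higher (19.7%) and 13 lower (19.8%).

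Changes with ARID1B WT were smaller. Against empty vector 3 and 4, 12 of 30 sterol genes were higher (23.6% of all genes tested) and 5 were lower (28.5%), and by 1.5-fold or more TM7SF2 was higher (11%) and ABCG1 lower (7.25%). Against empty vector 1 and 2, 26 were higher (30.9%) and 2 lower (33.5%). HMGCS1 was at 711 and 688 CPM against 671 and 663 CPM (0.07 ± 0.050, adjusted p 0.264 by edgeR). Of the enzymes, 6 were higher and 2 were lower, with a median of 0.06. TM7SF2 was the exception in size, at 182 CPM in both libraries against 87.9 and 84.3 CPM, 2.11-fold higher (1.08 ± 0.075, adjusted p 4.17e-12). MSMO1 was at 147 and 139 CPM against 97.9 and 98.4 CPM (0.55 ± 0.056). DHCR7, CYP51A1, LSS and SC5D rose by 0.27, 0.23, 0.22 and 0.20 on the log2 scale. PMVK and HSD17B7 fell by 0.30 and 0.18. STARD4 was at 236 and 212 CPM against 158 and 153 CPM (0.53 ± 0.063), NPC2 at 141 and 148 CPM against 106 and 96.7 CPM (0.52 ± 0.070), and INSIG2 at 14.9 and 13.4 CPM against 10.01 and 9.20 CPM (0.56 ± 0.117). ABCG1 was at 0.659 and 0.614 CPM against 1.63 and 1.95 CPM, a fold change of 0.354 (adjusted p 0.000155). All 12 replication genes were lower in these libraries (28.5% of all genes tested were), with sums of 1720 to 1747 CPM against 2759 to 2818 CPM. The markers of other cell types summed to 13.78 to 13.96 CPM against 1.617 to 2.812 CPM, the epithelial markers to 71.74 to 73.68 CPM against 45.26 to 49.17 CPM, and the p53 targets to 500.9 to 505.7 CPM against 334.3 to 336.5 CPM. The part of these lists was not tested.

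With ARID1B M2 most synthesis genes were lower than in its own control and than with ARID1B WT. Against empty vector 3 and 4, 22 of 30 sterol genes were lower (27.7% of all genes tested) and 4 were higher (25.4%). By 1.5-fold or more, 10 were lower (7.88%) and 4 higher (12%). Against empty vector 1 and 2, 24 were higher (33.9%) and 2 lower (34.1%). Of 18 enzymes, 16 were lower, MSMO1 did not pass (0.997-fold, adjusted p 0.968 by edgeR), and TM7SF2 was higher (0.59 ± 0.075). HMGCS1 was at 397 and 403 CPM against 671 and 663 CPM in the empty vector and 711 and 688 CPM with ARID1B WT. SQLE was at 337 and 332 CPM against 602 and 594 CPM with ARID1B WT. LSS was at 115 and 111 CPM against 219 CPM in both ARID1B WT libraries. Both M2 libraries were below both of the other pairs in each of these genes. In the direct comparison with ARID1B WT, 24 sterol genes were lower (15.3% of all genes tested) and 2 were higher (19.1%), and 17 of 18 enzymes were lower, with a median log2 difference of -0.58. The 1.5-fold rule left 10 lower (3.9%) and ABCG1 higher (3.76%). The difference was -0.95 ± 0.049 for LSS, -0.84 ± 0.038 for SQLE, -0.82 ± 0.044 for INSIG1 and -0.80 ± 0.050 for HMGCS1, and -0.05 ± 0.106 for PMVK, which did not pass.

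The 4 genes that were higher with M2 than in its empty vector pair were TM7SF2, INSIG2, MYLIP and NPC2. NPC2 was at 164 and 160 CPM against 106 and 96.7 CPM (0.68 ± 0.069, adjusted p 4.86e-09 by edgeR), the highest NPC2 levels of any group. MYLIP was at 12.3 and 12.999 CPM against 7.59 and 6.97 CPM (0.80 ± 0.101), and INSIG2 at 17.7 and 15.2 CPM against 10.01 and 9.20 CPM (0.79 ± 0.111). Compared with ARID1B WT, MYLIP was higher with M2 (0.52 ± 0.093) and ABCG1 was 3.61-fold higher, at 2.03 and 2.63 CPM against 0.659 and 0.614 CPM. ARID1B transcript was at 4250 ± 96.2 CPM with M2 and at 3597 ± 225 CPM with ARID1B WT (SD, n = 2). The summed replication genes were at 2360 to 2365 CPM with M2 and at 1720 to 1747 CPM with ARID1B WT. With M2 the markers of other cell types summed to 14.78 to 16.05 CPM, the epithelial markers to 117.9 to 124.6 CPM and the p53 targets to 472 to 479.2 CPM, against 1.617 to 2.812, 45.26 to 49.17 and 334.3 to 336.5 CPM in its empty vector pair. The part of these lists was not tested.

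**Figure D4:**
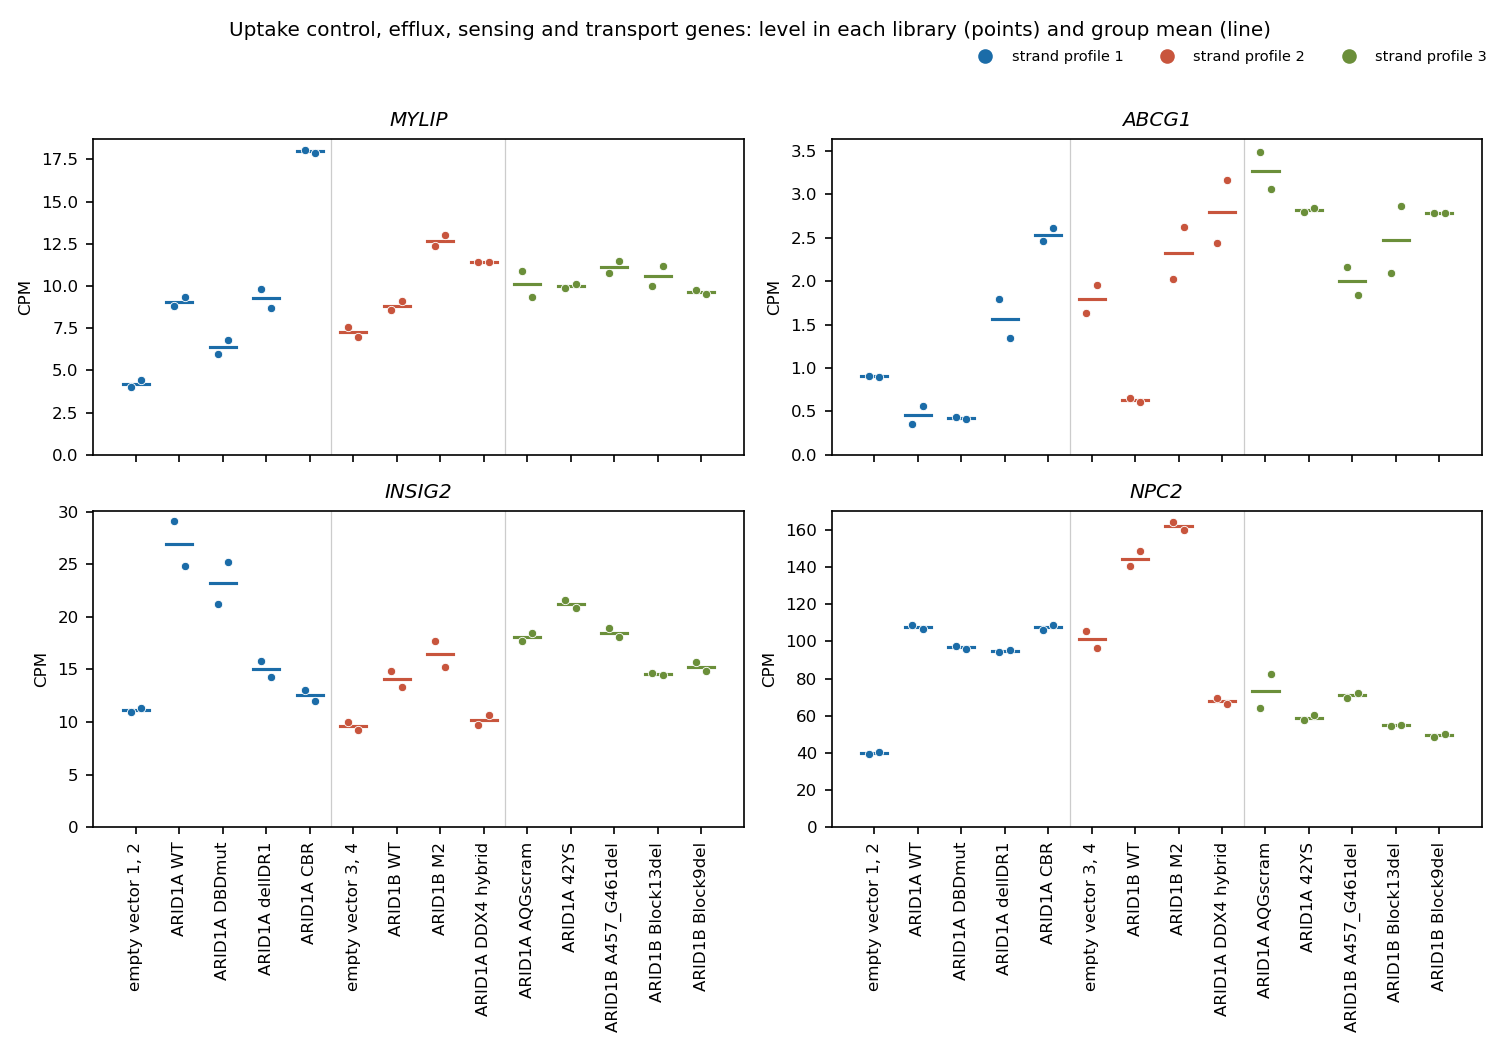
Level of MYLIP, ABCG1, INSIG2 and NPC2 in CPM (y axes, from 0) in each library (points) with the group mean (line), by group (x axis) and strand profile (colour). MYLIP is highest with ARID1A CBR at 18.04 and 17.9 CPM, ABCG1 is under 0.7 CPM with ARID1A WT, ARID1A DBDmut and ARID1B WT, and INSIG2 is highest with ARID1A WT at 29.1 and 24.8 CPM.

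The 5 constructs of profile 3 had no empty vector of their own profile. A sterol gene was therefore called for them only where it passed in the same direction against both empty vector pairs, and the smaller of the 2 changes is given. Under this rule 7 genes were higher (7.21% of all genes tested) and 2 lower (8.22%) in the libraries labelled AQGscram, with 10 called in all without AQGscram replicate 1, 7 without its replicate 2 and 6 without empty vector replicate 3. With 42YS, 3 were higher (11%) and 2 lower (11%). With A457_G461del, 2 were higher (14.1%) and 2 lower (12%), with Block13del 2 and 3 (13.9% and 11.8%), and with Block9del 3 and 3 (12.8% and 12.4%). For 42YS, A457_G461del, Block13del and Block9del these counts were near or below the shares of all genes. Of 18 enzymes, all 18 were higher than in empty vector 1 and 2 with each of 42YS, A457_G461del, Block13del and Block9del (30.5, 31.9, 31.5 and 30.5% of all genes tested were). Of the same enzymes, 15, 16, 15 and 16 were lower than in empty vector 3 and 4 (23.6, 24.1, 21.7 and 22.1%). HMGCS1 was at 578 and 565 CPM with 42YS, at 514 and 518 CPM with A457_G461del, at 575 and 536 CPM with Block13del and at 563 and 526 CPM with Block9del. In the libraries labelled AQGscram it was at 787 and 698 CPM, above both pairs. The median ratio of the enzymes to empty vector 1 and 2 was 0.65 to 0.73 on the log2 scale in the 8 libraries of the other 4 constructs, and 0.98 and 1.18 in the libraries labelled AQGscram.

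With the 4 constructs other than AQGscram no synthesis enzyme was called against both pairs by edgeR. INSIG2 rose by 0.92 with 42YS, 0.73 with A457_G461del, 0.69 with AQGscram, 0.45 with Block9del and 0.38 with Block13del on the log2 scale. MYLIP rose by 0.46, 0.62, 0.48, 0.41 and 0.55 with the same constructs. NPC1 fell by 0.26, 0.46, 0.31, 0.44 and 0.41, and SCAP by 0.29, 0.24, 0.21, 0.20 and 0.27. These 5 comparisons share their control libraries, so the values do not count as separate observations of the control level. ABCG1 rose by 0.85 with AQGscram, 0.64 with 42YS and 0.63 with Block9del. STARD4 fell by 0.39 with Block9del and 0.20 with Block13del. In the libraries labelled AQGscram, TM7SF2 (0.43), PMVK (0.32), HMGCS1 (0.15) and ACAT2 (0.13) were also higher. TM7SF2 stayed called at 0.56 without AQGscram replicate 1 and at 0.28 without replicate 2. HMGCS1 lost its call without replicate 1 (0.07), and PMVK and ACAT2 lost theirs without replicate 2 (0.13 and 0.11). INSIG2, MYLIP, ABCG1, SCAP and NPC1 were called without either library, at 0.74, 0.37, 0.76, -0.14 and -0.38 without replicate 1 and at 0.66, 0.59, 0.95, -0.28 and -0.23 without replicate 2.

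Constructs of profile 3 were also compared directly. With 42YS, 17 of 30 sterol genes were lower than in the libraries labelled AQGscram (18.8% of all genes tested) and 1 was higher (19.3%), with 18 called in all without AQGscram replicate 1, 15 without its replicate 2 or 42YS replicate 1, and 14 without 42YS replicate 2. The higher gene was INSIG2 (0.23), which was called in none of these 4 fits. Of 18 enzymes, 15 were lower. By 1.5-fold or more, TM7SF2 and MVD were lower (4.3%) and 0 genes were higher (2.79%). TM7SF2 was at 65.0 and 70.2 CPM with 42YS against 104 and 127 CPM (-0.78 ± 0.075, adjusted p 1.65e-08 by edgeR), and MVD at 74.5 and 76.6 CPM against 108 and 136 CPM (-0.69 ± 0.079). Without AQGscram replicates 1 and 2 in turn, TM7SF2 was at -0.91 and -0.63 and MVD at -0.84 and -0.51, each still called. ACAT2 (-0.50 ± 0.047, -0.52 and -0.48 in those fits) and EBP (-0.51 ± 0.075, -0.67 and -0.33) followed. PMVK, NSDHL, HSD17B7 and NPC2 lost their call without AQGscram replicate 2, and CYP51A1 without replicate 1. SQLE (-0.09 ± 0.038), MSMO1 (-0.11 ± 0.055) and SC5D (0.01 ± 0.056) did not pass.

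Among the ARID1B deletions of profile 3, A457_G461del had the highest ARID1B transcript (2236 ± 32.9 CPM, against 883 ± 7.14 with Block13del and 344 ± 0.277 with Block9del). TM7SF2 was at 98.1 and 92.8 CPM with A457_G461del, at 66.6 and 77.7 CPM with Block13del and at 69.0 and 71.3 CPM with Block9del. Against Block9del, 5 sterol genes were higher (16.4% of all genes tested) and 2 lower (15.2%), counts near or below the shares of all genes. TM7SF2 (0.45 ± 0.075), MSMO1 (0.18 ± 0.056), INSIG2 (0.27 ± 0.093), STARD4 (0.50 ± 0.063) and NPC2 (0.52 ± 0.073) were higher, and FASN (-0.30 ± 0.052) and SCD (-0.18 ± 0.043) were lower. Against Block13del, 5 were higher (10.2%) and 3 lower (9.82%). That count fell to 3 without A457_G461del replicate 1, 4 without its replicate 2 and 5 without Block13del replicate 1. Block13del against Block9del gave 0 called sterol genes by edgeR (1.18% of all genes tested were higher and 0.0703% lower), with 2 higher and 2 lower at an unadjusted p under 0.05 and 0 by DESeq2. The differences ranged up to 0.20 ± 0.064 for STARD4, with SE of 0.038 for SQLE and 0.183 for ABCG1.

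The response of each gene, meaning its change from its own empty vector pair, was also compared between constructs. The response to the DDX4 hybrid was below that to ARID1A WT for 27 of 30 sterol genes (25.2% of all genes tested) and above it for ABCG1 (25.3%). The median difference was -1.88 on the log2 scale, against 0.02 over all genes. The largest were in HSD17B7 (-2.64 ± 0.112, adjusted p 4.1e-16 by edgeR), MVD (-2.58 ± 0.119), HMGCS1 (-2.47 ± 0.072) and MVK (-2.43 ± 0.122). SCAP (0.04 ± 0.072) and NPC1 (-0.15 ± 0.074) did not pass. The empty vector pairs enter this difference. HMGCS1 was at 591 and 569 CPM with ARID1A WT and at 283 and 282 CPM with the hybrid, while the empty vector pairs stood at 252 and 244 CPM and at 671 and 663 CPM. The response to ARID1B WT was below that to ARID1A WT for 25 genes (22.9%) and above it for 0 (18.7%), with 25 and 0 at an unadjusted p under 0.05 and by DESeq2. SQLE was at 602 and 594 CPM with ARID1B WT and at 444 and 435 CPM with ARID1A WT. The constructs in each of these comparisons lie in different strand profiles, which cannot be told apart from them.

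MYLIP was lowest in empty vector 1 and 2 (4.03 and 4.41 CPM), followed by ARID1A DBDmut (5.95 and 6.83 CPM) and empty vector 3 and 4 (7.59 and 6.97 CPM), and it was highest with ARID1A CBR. Its log2 fold change from the own pair was 2.09 with CBR, 1.13 with delIDR1, 1.11 with ARID1A WT, 0.80 with M2, 0.65 with the DDX4 hybrid, 0.60 with DBDmut and 0.29 with ARID1B WT, and each of these passed. The value with ARID1B WT was called in 2 of 4 fits that left out a library. The comparisons within a profile share their empty vector pair. INSIG2 was lowest in empty vector 3 and 4 (10.01 and 9.20 CPM) and with the DDX4 hybrid (9.71 and 10.6 CPM), which overlapped. SREBF1 moved least, from 208 to 289 CPM over all libraries, with a ratio of 1.35 between its highest and lowest group means. The next smallest ratios were 1.504 for SCAP, 1.54 for SREBF2 and 1.57 for both NPC1 and SCD. The largest among the tested genes were 7.73 for ABCG1, whose counts were low, 4.26 for MYLIP, 4.07 for HSD17B7, 4.04 for NPC2 and 3.44 for TM7SF2. ABCA1 had 0 reads in 14 of 28 libraries, which allows up to 0.106 to 0.196 CPM at these depths, and reached 5 reads in 1 delIDR1 library. Intervals and limits of this kind cover counting error only.

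Other genes of the pathway, taken from lists made for their function, were read in the same fit. Over all genes tested, 23.6 to 30% were higher and 24.4 to 31.1% lower in the 7 comparisons with an own empty vector pair, and the counts of each list stand beside those shares. Of 12 fatty acid and phospholipid targets of SREBP, 9 were higher and 0 lower with ARID1A WT and with DBDmut, 8 and 3 with delIDR1, 5 and 3 with CBR, 6 and 2 with ARID1B WT, 3 and 8 with M2, and 0 and 11 with the DDX4 hybrid, each against its own pair. ACSS2, which makes acetyl-CoA from acetate, was at 26.6 ± 1.47 CPM in empty vector 1 and 2 and at 193 ± 4.85 CPM with ARID1A WT (2.86 ± 0.056, adjusted p 6.01e-24 by edgeR). It was at 204 ± 3.96 CPM with CBR. ELOVL6, a fatty acid elongase, was at 137 ± 0.692 CPM with ARID1A WT and at 57.0 ± 0.680 CPM with CBR, against 31.9 ± 2.71 CPM. With the DDX4 hybrid, TMEM97 (-0.79 ± 0.046), ELOVL6 (-0.82 ± 0.062) and FADS2 (-0.61 ± 0.056) fell with the sterol enzymes, and ACSS2 did not pass (-0.10 ± 0.055, adjusted p 0.138).

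The neighbouring branches had calls in both directions, and several of their counts were near the shares of all genes. Of 12 genes of isoprenoid use, 3 were higher and 3 lower with ARID1A WT (29.9 and 30.8% of all genes tested), 4 and 4 with CBR (28.7 and 30.8%), and 1 and 2 with the DDX4 hybrid (26.1 and 24.4%). Of 12 genes of SREBP processing and sterol-regulated degradation, 4 were higher and 5 lower with ARID1A WT, also near the shares of all genes, and 5 and 6 with the hybrid. TRIB3, a pseudokinase of the stress response, fell by 2.35 with ARID1A WT and by 1.97 with the hybrid on the log2 scale. Of 11 tested genes of sterol transport and esterification, 6 were higher (29.9%) and 1 lower (30.8%) with ARID1A WT, among them OSBPL9 (1.74 ± 0.051) and VLDLR (1.89 ± 0.113). Of 9 tested genes of liver X receptor and oxysterol biology, 7 were higher (28.7%) and 0 lower (30.8%) with CBR, 6 and 1 with delIDR1, 4 and 1 with DBDmut, 3 and 1 with ARID1A WT and with ARID1B WT, 2 and 1 with the DDX4 hybrid and 2 and 2 with M2. APOE, a lipoprotein that accepts effluxed cholesterol, was at 16.6 ± 2.11 CPM in empty vector 1 and 2 and 9.60 ± 1.12 CPM in empty vector 3 and 4. It was at 165 ± 0.178 CPM with CBR, 174 ± 8.37 CPM with ARID1A WT, 202 ± 2.23 CPM with delIDR1 and 69.6 ± 4.44 CPM with the DDX4 hybrid. APOE was higher than in the own control both with ARID1A WT and with the hybrid, with a log2 fold change of 3.39 ± 0.096 for ARID1A WT and 2.86 ± 0.113 for the hybrid (adjusted p 1.17e-20 and 5.08e-17 by edgeR).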

How the data were processed

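RNA of AN3CA cells was sequenced in 28 libraries. Per the submitters' processing notes the tools were bcl2fastq, STAR 2.5.2b and Bowtie2 2.29 with build hg19, and their roles and the annotation are not given in the sources used here. The deposited values are read counts per gene, and the column used here holds opposite-strand reads. Reads naming no gene (12.9 to 28.5%) stayed out of library sizes. One edgeR 4.0.16 quasi-likelihood fit (R 4.3.3, TMM scaling, low counts filtered by edgeR's default rule) covered all 28 libraries, with the empty vector split by strand profile, and p-values were adjusted by Benjamini-Hochberg over 14220 genes (threshold 0.05). A second rule asked for a change of 1.5-fold. SE is the log2 fold change over the root of its F. CPM is TMM-scaled. The test was tested on simulated data. DESeq2 1.42.0, other scalings and filters, other controls and left-out libraries were alternatives.

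Members and lists were chosen with earlier results of these data known. Named genes are all members, at most 4 called genes with the smallest adjusted p per pathway list and comparison, and ARID1A and ARID1B. ACSS2, ELOVL6 and APOE are also given in groups where this rule did not name them.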

Additional observations from a re-analysis of the deposited data

Results flagged for a closer look

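The response to the ARID1A DDX4 hybrid is each gene's change from empty vector 3 and 4. That to ARID1A WT is its change from empty vector 1 and 2. These responses differed in 28 of 30 sterol genes by edgeR's interaction contrast. Of all genes tested, the hybrid response was above that to ARID1A WT in 25.3% and below it in 25.2%. The genes listed here are those also called in opposite directions in the 2 own-pair comparisons. On the log2 scale the difference was -2.19 for ACAT2, -2.47 for HMGCS1, -2.43 for MVK, -2.58 for MVD, -2.01 for IDI1 and -1.94 for FDPS. It was -1.67 for FDFT1, -2.13 for SQLE, -2.2 for LSS, -1.85 for CYP51A1, -1.91 for TM7SF2 and -2.35 for MSMO1. It was -1.99 for NSDHL, -2.64 for HSD17B7, -1.79 for EBP, -0.94 for SC5D and -2 for DHCR7. Outside the synthesis route it was -2.28 for INSIG1, -0.96 for SREBF2, -1.44 for STARD4, -2 for NPC2, 1.58 for ABCG1 and -1.14 for FASN. The response to ARID1B WT differed from that to ARID1A WT in 25 genes. Of all genes tested, 18.7% were above and 22.9% below in that comparison. HSD17B7, listed by the same rule, had a difference of -1.51. The difference between the empty vector pairs enters each of these values.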

How the results depend on the processing

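The empty vector libraries used as control moved the counts of called sterol genes or the balance of higher and lower calls. With the other pair as control the counts (higher and lower) were 21 (7 and 14) for ARID1A WT, 26 (5 and 21) for CBR, 21 (5 and 16) for delIDR1, 21 (4 and 17) for DBDmut, 21 (12 and 9) for the DDX4 hybrid, 26 (24 and 2) for M2 and 28 (26 and 2) for ARID1B WT. The shares of all genes tested under this control stand with each construct above. With all 4 empty vector libraries they were 8 (7 and 1) for ARID1A WT, 13 (5 and 8) for CBR, 6 for delIDR1, 5 for DBDmut, 15 (2 and 13) for the hybrid, 8 (5 and 3) for M2 and 2 for the ARID1B WT response against the ARID1A WT response. Of all genes tested, 21.1 and 23.5% were higher and lower for ARID1A WT, 25.2 and 27.8% for CBR, and 22.4 and 27.7% for delIDR1. The shares were 16.9 and 18.3% for DBDmut, 19.7 and 19.8% for the hybrid and 22.1 and 25.1% for M2. They were 4.56 and 8.96% for the response comparison. Only the count of lower genes with the hybrid was well above its share. Against empty vector 1 and 2 alone, AQGscram had 29 (27 and 2) and 42YS, A457_G461del, Block13del and Block9del had 28 each. Of all genes tested, 29.4 to 31.9% were higher and 30.5 to 33.3% lower in these comparisons. Against empty vector 3 and 4 alone the counts were 19 (7 and 12), 26 (3 and 23), 25, 25 and 26. There, 15.2 to 23.8% of all genes tested were higher and 18.8 to 24.1% lower. Fitting libraries of the same strand profile alone gave 15 for DBDmut against ARID1A WT (main value 9) and 4 for A457_G461del against Block13del (main value 8). Calls over all genes moved in the same directions. For DBDmut they were 1339 higher and 1964 lower of 13912 genes, against 1184 and 1527 of 14220 in the main fit. For A457_G461del against Block13del they were 874 and 580 of 13298, against 1454 and 1396. DESeq2 gave 9 (4 and 5) for A457_G461del against Block9del (main value 7, 5 and 2). Over all genes it gave 1801 higher and 2089 lower there, against 2332 and 2158. Leaving out 1 library gave 5 to 10 for DBDmut against ARID1A WT and 3 to 6 for A457_G461del against Block13del. Beyond the control pair, the cause of these moves was not tested. Scaling, filter, strand and DESeq2 alternatives were read gene by gene in the own-pair and the direct comparisons. Per setting, 424 to 440 of the single-gene values kept their side of the threshold. No gene called in either fit changed direction, and direction was not compared for genes called in neither.

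With the replicate number as a block, the counts were 26 for ARID1A WT, 22 for CBR, 26 for delIDR1 and 28 for DBDmut. Over all genes, 8579, 8414, 7956 and 8320 were called, against 8576, 8419, 7949 and 8306 without the block. The block gave 8 in place of 9 for DBDmut against ARID1A WT (2664 and 2661 over all genes). It gave 27 in place of 26 for M2 against ARID1B WT (4838 and 4849). Within a profile, each group's gene-by-gene difference between its replicates was correlated with that of another group with the same replicate numbers. The correlation of these differences was -0.051 to 0.119, over 0.1 in 1 of 23 pairs of groups. Same-numbered libraries were therefore not taken as pairs. Only the comparisons with empty vector replicates 3 and 4 had no blocked fit, because those replicates share no number with the constructs. Depth limits ABCG1 and ABCA1 most, whose counts were the lowest.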
